A study of Rattus norvegicus with 9 samples.

Results

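The 9 genes Col1a1, Col1a2, Col3a1, Col4a1, Fn1, Timp1, Mmp2, Acta2 and Tgfb1, of the extracellular matrix and of hepatic stellate cells, were followed in rat liver one day after total-body irradiation (TBI). They were taken by name, and the probes were those whose RefSeq transcript belongs to one of these genes. Of the 9 genes, 8 had a probe, out of 13438 genes named on the array in this way, and Acta2 was not analysed here. The 8 genes were covered by 12 probes, and all 12 were marked well above background on all 9 arrays. All livers came from male Wistar rats, whose age is not given in the sources used here, and were taken 24 h after exposure. The 3 control rats were not irradiated. The 3 TBI rats received 6.5 Gy at 2 Gy/min from a cobalt source, and the 3 HSC + TBI rats were given Hong Shan Capsule (HSC) by stomach tube on 3 days in a row before the same exposure. HSC here is a herbal preparation and not the hepatic stellate cell. Its daily dose is stated as 10 g/kg in the series' design and as 30 mg/kg in the sample labels, and it entered no calculation. There was no group given HSC without irradiation, so HSC was seen only in irradiated rats.

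Stellate cells lie between the sinusoidal endothelium and the hepatocytes, store retinoid while quiescent, and are the main source of fibrillar collagen once activated. Their matrix is laid down as collagens and fibronectin, is cut by matrix metalloproteinases, and is shielded by tissue inhibitors of these enzymes. Transforming growth factor beta, made largely by macrophages and other non-parenchymal cells and activated outside the cell, is the best known driver of collagen synthesis in liver.

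Whole liver was measured, so that fewer cells of a type and less RNA per cell cannot be told apart. The hepatocyte markers Alb, Ttr, Apoa1, Apob, Cps1, Hpd, Tat and Serpina1 were above background on every array, with summed signals that overlapped between all groups, and Tat was called higher after TBI (by 1.53, adjusted p = 0.0287). Of the cholangiocyte markers, 2 were tested and 0 called, with 0 at an unadjusted p under 0.05. The share of probes above background was 56.6% to 59.3% in controls, 63.6% to 69.5% after TBI and 58.7% to 60.5% after HSC + TBI. The 9 arrays lay on 4 slides, none of which held rats of more than one group, so slide and group cannot be told apart. Signals are given on the log2 scale after quantile normalization, so that a difference of 1 is a doubling. A gene with more than one probe is given by its brightest probe unless the other is named, and levels are compared between rats only. A probe was called when its groups differed at least 1.5-fold and limma's p, adjusted by Benjamini-Hochberg over all 25369 probes tested, was under 0.05.

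None of the 8 genes was called in any of the 3 comparisons. Between TBI and control, 0 of 8 were called by limma, against 3.54% of all tested probes called higher and 3.71% called lower, and 2 of 8 had an unadjusted p under 0.05, against 25.5% of all probes. Between HSC + TBI and control, 0 of 8 were called, against 1.19% of probes higher and 2.05% lower, with 2 of 8 at an unadjusted p under 0.05, against 19.6% of probes. Between HSC + TBI and TBI, 0 of 8 were called, against 0.233% of probes higher and 0.564% lower, with 1 of 8 at an unadjusted p under 0.05, against 16.3% of probes. The methods' t-test, without adjustment and with the same fold threshold, called 0 genes for TBI against control, 2 genes (Mmp2 and Tgfb1) for HSC + TBI against control, and 0 for HSC + TBI against TBI. Of all probes, the same unadjusted test with this fold threshold called 10.1%, 8.12% and 5.37% in these 3 comparisons. The median log2 fold change of the 8 genes was 0.05, -0.06 and -0.03 in the same order, beside -0.01, 0.05 and 0.06 for all probes. The rats of both groups did not overlap for 1, 4 and 3 of the 8 genes, against 28.9%, 31.7% and 21.4% of all probes; whether these shares differ was not tested. With 3 rats a group these zeros do not show that the genes were unaltered, and the widths of the intervals are given with each gene.

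**Figure D1:**
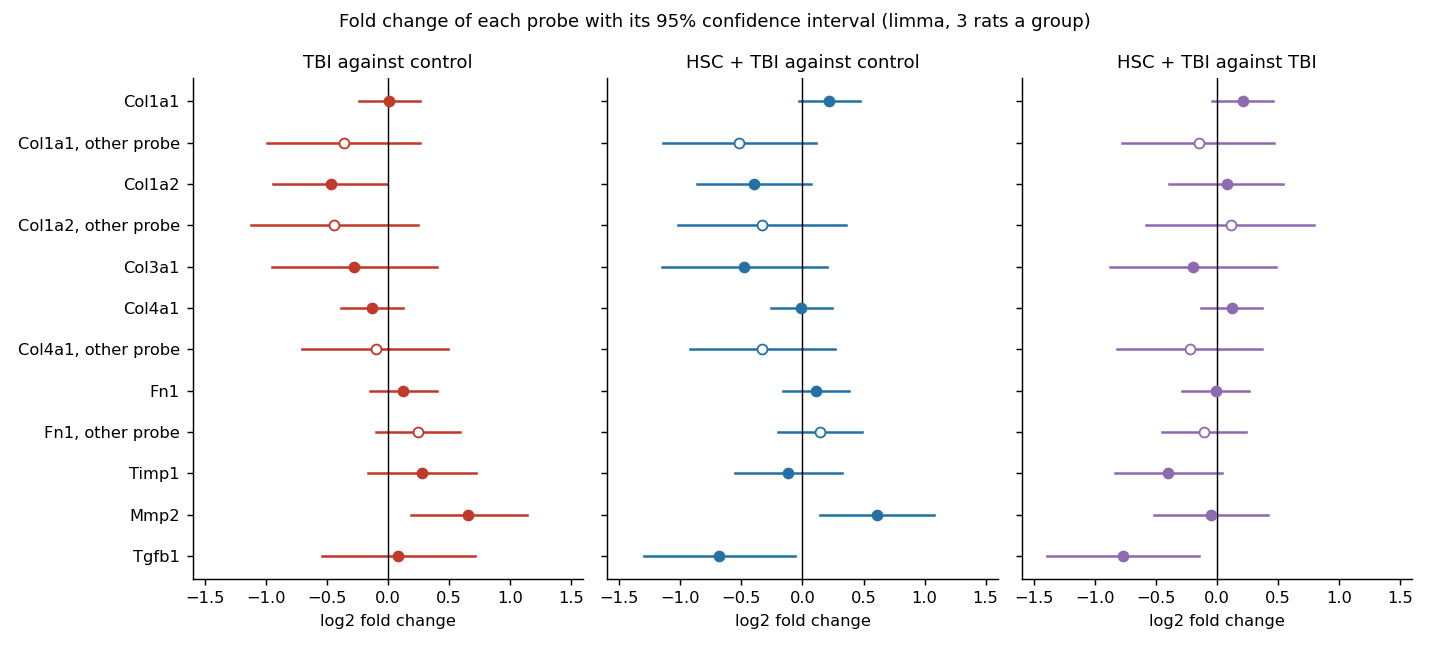
Log2 fold change of each of the 12 probes in the 3 comparisons, with the 95% confidence interval from limma as a line; filled points are the brightest probe of a gene and open points the other one. The Mmp2 interval lies above 0 in both comparisons with control (0.19 to 1.14 and 0.14 to 1.08), and the Tgfb1 interval lies below 0 in both comparisons of HSC + TBI.

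Mmp2, the gelatinase that degrades basement membrane collagen and denatured collagen, had the largest difference between TBI and control among the 8 genes. Its log2 signal was 9.42, 9.17 and 9.80 in the controls, 9.95, 9.95 and 10.50 after TBI, and 10.23, 9.96 and 10.04 after HSC + TBI. Each of the 6 irradiated rats was above each of the 3 controls. TBI against control gave a log2 fold change of 0.66 (SE 0.21, 95% interval 0.19 to 1.14, 1.59-fold, adjusted p = 0.0864). HSC + TBI against control gave 0.61 (SE 0.21, 0.14 to 1.08, 1.53-fold, adjusted p = 0.152). Both estimates passed the fold threshold and missed the adjusted p. Between HSC + TBI and TBI the log2 fold change was -0.05, with an interval of -0.52 to 0.42, which leaves room for a difference of either sign. The Mmp2 probe was printed 10 times on each array, and the SD between its spots within an array was 0.04 to 0.10 (log2), less than the SD of 0.32 between control rats. Leaving out each rat in turn kept the log2 fold change between 0.48 and 0.83 for TBI and between 0.46 and 0.78 for HSC + TBI, with no call. Of the 6 endothelial markers measured, all were above background on every array and none was called. Lyve1 was at 0.53 after TBI (adjusted p = 0.0469, fold under 1.5) and at 0.40 after HSC + TBI (adjusted p = 0.147). The mean was higher than in controls for 4 and lower for 2 after TBI, and higher for 3 and lower for 3 after HSC + TBI, where Cdh5 was at -0.67 (adjusted p = 0.1) and Fcgr2b at 0.36 (adjusted p = 0.208). The summed signal of the 6 was 16100 to 20400 in controls, 23100 to 26200 after TBI and 20800 to 22700 after HSC + TBI. Their part in the Mmp2 values was not tested.

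Timp1, a secreted inhibitor of metalloproteinases, was highest on average after TBI. Its log2 signal was 9.79, 10.28 and 10.34 in controls, 10.42, 10.32 and 10.52 after TBI, and 10.15, 9.69 and 10.22 after HSC + TBI. The control range reached into the range of both irradiated groups, whereas the 3 HSC + TBI rats were all below the 3 TBI rats. HSC + TBI against TBI gave a log2 fold change of -0.40 (SE 0.19, 95% interval -0.84 to 0.04, adjusted p = 0.354). TBI against control gave 0.28 (interval -0.16 to 0.72, adjusted p = 0.395), and HSC + TBI against control gave -0.12 (interval -0.55 to 0.32, adjusted p = 0.792). This probe also had 10 spots per array, with an SD between spots of 0.04 to 0.08.

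Tgfb1, the ligand, was lower in the HSC + TBI rats than in both other groups, without a call. Its log2 signal was 5.90, 6.53 and 6.69 in controls, 5.89, 6.81 and 6.67 after TBI, and 5.62, 5.74 and 5.71 after HSC + TBI. The 3 HSC + TBI rats lay below all 6 others, and control 1 and TBI 1 lay nearest to them. HSC + TBI against TBI gave a log2 fold change of -0.77 (SE 0.27, 95% interval -1.39 to -0.15, 1.7-fold lower, adjusted p = 0.22). HSC + TBI against control gave -0.68 (SE 0.27, -1.30 to -0.06, 1.6-fold lower, adjusted p = 0.215). TBI against control gave 0.08, with an interval of -0.54 to 0.71. Without TBI 1 the difference from TBI was -1.05 and would have been called (adjusted p = 0.0493), and over all single rats left out it ran from -1.05 to -0.59. The signal was low, and normexp background correction reduced the differences to -0.32 against TBI and -0.29 against control. The Tgfb1 probe had 10 spots per array, of which 9 over all arrays were flagged as outliers and left out. The SD between the remaining spots of an array was 0.05 to 0.13.

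Markers of Kupffer cells and other macrophages had lower means over the same 3 rats. All 9 measured markers (Cd68, Cd163, Clec4f, Marco, Adgre1, Csf1r, C1qa, C1qb and Vsig4) were above background on every array, so none was absent. All 9 had a lower mean after HSC + TBI than after TBI, with a median log2 fold change of -0.96, 7 of 9 not overlapping and 0 called by limma, while 8 of 9 had an unadjusted p under 0.05. Of all probes, 21.4% did not overlap, 0.796% were called and 16.3% had an unadjusted p under 0.05 in this comparison. Their summed signal was 89400 to 140000 in controls, 93700 to 175000 after TBI and 65600 to 70900 after HSC + TBI. Clec4f, which marks resident Kupffer cells, had a log2 signal of 15.25, 15.73 and 15.43 in controls, 15.14, 16.04 and 15.55 after TBI and 14.65, 14.69 and 14.81 after HSC + TBI. Cd163, a scavenger receptor, was at 7.52 to 8.45 over the 9 rats. The leukocyte markers were lower too, with all 7 tested ones lower after HSC + TBI than after TBI (median -1.08, 0 called, 5 of 7 at an unadjusted p under 0.05, against the same 0.796% and 16.3% of all probes). The summed signal of the leukocyte markers was 1420 to 2100 in controls, 843 to 2130 after TBI and 558 to 787 after HSC + TBI. After TBI against control, 2 of the 7 leukocyte markers were called lower, against 3.71% of all probes. Their median log2 fold change there was -0.36, and 1 of the 7 had a higher and 6 a lower mean. Among the leukocyte markers, Cd3g, of the T-cell receptor complex, fell by 3.60 after TBI and was at least 11.4-fold lower after HSC + TBI than in controls. It was well above background on all 3 control arrays and on none of the HSC + TBI arrays. Cd79b, of the B-cell receptor, was not well above background on any irradiated array and was at least 4.97-fold lower after TBI and at least 2.9-fold lower after HSC + TBI. The part of either cell type in the Tgfb1 values was not tested.

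**Figure D2:**
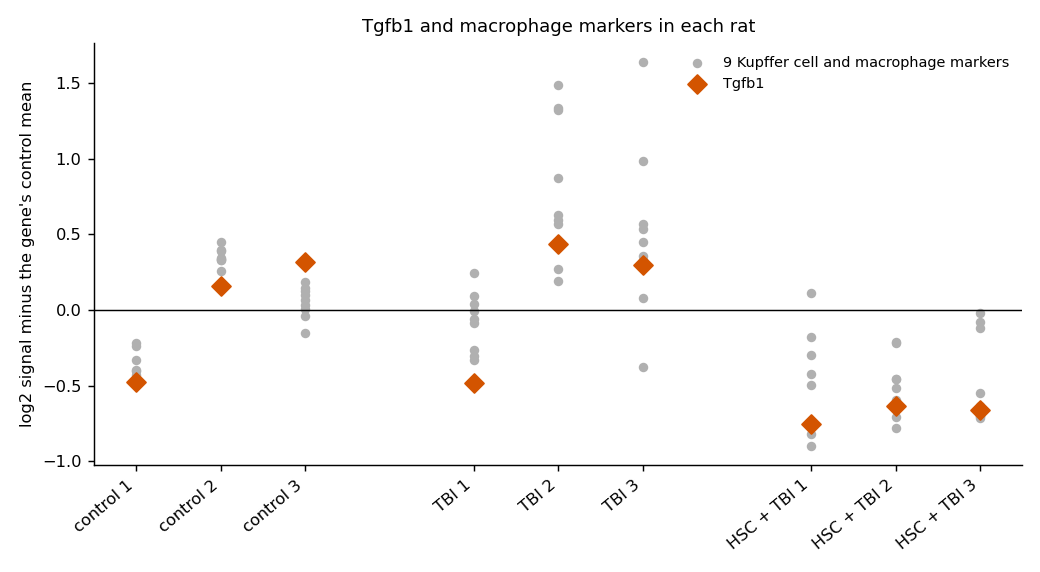
Log2 signal of Tgfb1 (diamonds) and of 9 Kupffer cell and macrophage markers (grey points) in each of the 9 rats, each as the difference from that gene's mean over the 3 controls. In the 3 HSC + TBI rats Tgfb1 (5.62 to 5.74 before the control mean of 6.37 is taken off) and most markers lie below 0, and in control 1 and TBI 1 Tgfb1 lies below 0 as well.

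The RefSeq promoter table (build GRCr8) held windows for Col1a2, Col4a1, Timp1, Acta2 and Tgfb1. The 250 bases before the annotated start are shown for the 3 measured genes among them with an unadjusted p under 0.05 or with HSC + TBI rats apart from TBI rats, namely Col1a2 (chr4:33518307-33518556 on the plus strand), Timp1 (chrX:3771123-3771372 on the minus strand) and Tgfb1 (chr1:90324062-90324311 on the plus strand). Capitals mark a match, on either strand, to one of the motifs that follow, and the matches do not overlap each other. The motif bound by the basal transcription machinery was searched as TATAAA, and the one bound by the Sp1 family as GGGCGG. The motif of the dimeric factor AP-1 was searched as TGANTCA, and the one bound by nuclear factor Y as CCAAT.
Col1a2: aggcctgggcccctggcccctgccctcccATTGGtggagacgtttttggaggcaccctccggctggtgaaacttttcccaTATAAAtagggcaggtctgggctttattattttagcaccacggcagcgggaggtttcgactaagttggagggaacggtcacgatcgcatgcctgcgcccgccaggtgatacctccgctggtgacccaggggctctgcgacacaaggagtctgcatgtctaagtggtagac
Timp1: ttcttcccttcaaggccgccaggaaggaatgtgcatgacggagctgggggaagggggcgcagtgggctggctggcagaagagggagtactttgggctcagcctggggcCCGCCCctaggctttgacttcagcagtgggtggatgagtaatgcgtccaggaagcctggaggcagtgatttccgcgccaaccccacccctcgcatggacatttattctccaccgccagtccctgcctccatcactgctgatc
Tgfb1: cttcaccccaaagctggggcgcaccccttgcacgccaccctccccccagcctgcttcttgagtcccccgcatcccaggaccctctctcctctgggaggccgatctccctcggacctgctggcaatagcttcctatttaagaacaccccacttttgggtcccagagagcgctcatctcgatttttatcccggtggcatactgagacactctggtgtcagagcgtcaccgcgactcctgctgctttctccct
In the Col1a2 window TATAAA stood 170 to 165 bases before the start, and CCAAT was found on the other strand. The Timp1 window held GGGCGG on the other strand, and the Tgfb1 window held none of these motifs. Of all 33469 windows of this length, 12.9% held the first of these motifs, 30.5% that of the Sp1 family, 6.34% that of AP-1 and 34% that of nuclear factor Y. The single strict patterns searched for the Smad site (0.481% of windows) and the CArG box (1.5%) had no exact match in the 5 windows. Looser forms of these sites were not searched. Whether the windows, that of Acta2 included, hold such forms therefore cannot be said from these counts. A match is a description of the letters only.

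The fibrillar collagens form the stiff fibres of scar and portal tissue. Col1a2, which encodes the second chain of type I collagen, had a log2 signal of 12.37, 12.15 and 12.68 in controls, 11.75, 11.78 and 12.25 after TBI, and 12.09, 12.20 and 11.73 after HSC + TBI. The means of both irradiated groups were lower than the control mean, but TBI 3 and HSC + TBI 2 lay above control 2. TBI against control gave a log2 fold change of -0.47 (SE 0.20, 95% interval -0.94 to -0.01, adjusted p = 0.188), and HSC + TBI against control gave -0.40 (-0.86 to 0.07, adjusted p = 0.326). HSC + TBI against TBI gave 0.08 (-0.39 to 0.54). The second probe of Col1a2 followed the first with Pearson's r = 0.94 over the 9 arrays, and its log2 fold changes were -0.44, -0.33 and 0.11 in the same order.

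Col3a1, the chain of type III collagen, had a log2 signal of 13.14, 12.97 and 13.26 in controls, 12.40, 12.49 and 13.66 after TBI, and 12.68, 12.65 and 12.62 after HSC + TBI. TBI 3 had the highest value of all 9 rats, and the other TBI rats had the 2 lowest. TBI against control gave -0.28 (SE 0.30, 95% interval -0.95 to 0.40, adjusted p = 0.601). Without TBI 3 it was -0.68 with an adjusted p of 0.0159, which passes both thresholds, so that this single rat decided the call. The HSC + TBI rats lay close together (SD 0.03, n = 3) and below all controls, with -0.48 against control (-1.15 to 0.20, adjusted p = 0.427). HSC + TBI against TBI gave -0.20 (-0.88 to 0.48), which turned to 0.20 without TBI 3. Col3a1 and Col1a2 were correlated over the 9 arrays (r = 0.75), as a description of arrays that share groups.

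Col1a1, the first chain of type I collagen, gave no single answer because its probes differed. The brighter probe read 9.52, 9.48 and 9.69 in controls, 9.56, 9.64 and 9.52 after TBI, and 9.72, 9.76 and 9.87 after HSC + TBI. On this probe the HSC + TBI rats were above all others by a small margin, with 0.22 against control (95% interval -0.03 to 0.47, adjusted p = 0.309) and 0.21 against TBI (-0.04 to 0.46, adjusted p = 0.389). TBI against control was 0.01 (-0.24 to 0.26). The other probe, assigned to the same transcript in the files, read 9.62, 8.91 and 9.75 in controls, 8.92, 8.84 and 9.44 after TBI, and 9.18, 9.02 and 8.53 after HSC + TBI. Its log2 fold changes were -0.36, -0.52 and -0.15, with overlapping rats in each comparison. Pearson's r between the probes was -0.38 over the 9 arrays, and which of them reads Col1a1 better cannot be said from these data. The brighter Col1a1 probe had r = -0.22 with the brighter Col1a2 probe, although both chains enter the same triple helix.

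Col4a1, a chain of the type IV collagen of basement membranes, was nearly level on its brighter probe, with 10.07, 9.95 and 9.98 in controls, 10.03, 9.78 and 9.80 after TBI, and 10.00, 9.98 and 9.99 after HSC + TBI. The log2 fold changes were -0.13 (95% interval -0.38 to 0.12), -0.01 (-0.26 to 0.24) and 0.12 (-0.13 to 0.37), so that changes beyond 0.38 in either direction lay outside all 3 intervals of this probe. The other probe read 9.96, 9.78 and 10.22 in controls, 9.59, 9.52 and 10.54 after TBI, and 9.77, 9.55 and 9.67 after HSC + TBI. There TBI 3 was again the highest rat, the HSC + TBI rats were below all controls (-0.33, -0.92 to 0.27), and r with the brighter probe was -0.23. Its intervals reached further, with -0.70 to 0.49 for TBI against control and -0.82 to 0.37 for HSC + TBI against TBI. Which probe reads Col4a1 better cannot be said from these data.

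Fn1, which encodes fibronectin, a plasma protein made by hepatocytes as well as a tissue matrix protein, had the narrowest range next to Col4a1. Its log2 signal was 15.27, 15.14 and 15.14 in controls, 15.48, 15.17 and 15.26 after TBI, and 15.34, 15.34 and 15.20 after HSC + TBI, with all groups overlapping. The log2 fold changes were 0.12 (95% interval -0.15 to 0.40), 0.11 (-0.16 to 0.38) and -0.01 (-0.29 to 0.26). The other Fn1 probe, with 10 spots per array, gave 0.25 (-0.10 to 0.59), 0.14 (-0.20 to 0.49) and -0.11 (-0.45 to 0.24), and r between the probes was 0.46.

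**Figure D3:**
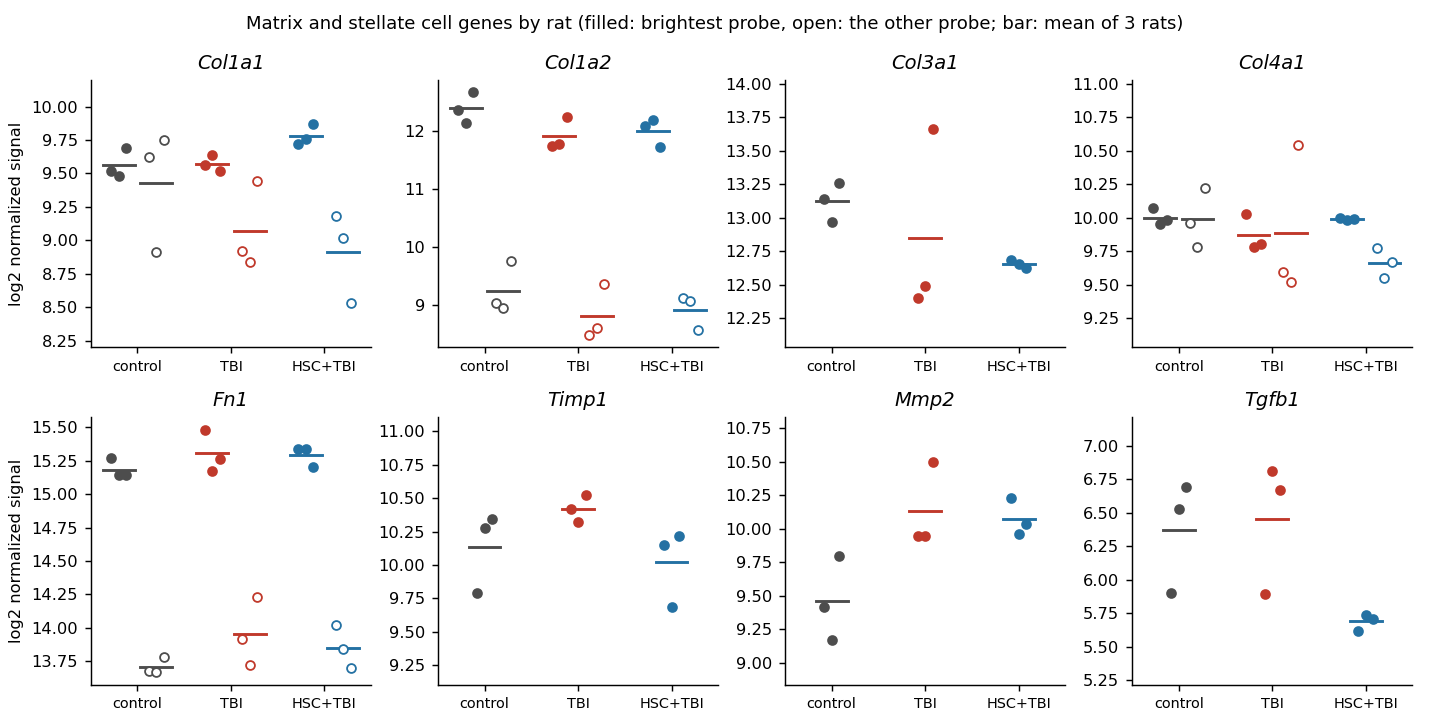
Log2 normalized signal of the 8 genes in each rat, with 3 rats a group and the bar at their mean; filled points are the brightest probe and open points the other probe of the gene, and the scale differs between panels. Mmp2 is higher in all 6 irradiated rats than in the controls (9.17 to 9.80), Tgfb1 is lowest in the 3 HSC + TBI rats (5.62 to 5.74), and TBI 3 stands above the other TBI rats for Col3a1 (13.66).

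Among 8529 named genes above background on all 9 arrays, those with the signal most like each of the 8 genes over the arrays, by Pearson's r, were Caprin1 (0.96) and Plcl1 (0.95) for Mmp2, Sh3bgrl3 and Ncf4 (0.98 each) for Tgfb1, and Alg8 (0.95) and Ints10 (0.92) for Timp1. For the collagens they were Cacfd1 (0.95) and Crispld2 (0.93) for Col1a2, Stx7 and Prss23 (0.98 each) for Col3a1, Gfus and Usp5 (0.94 each) for Col1a1, and Nfrkb (0.98) and Ppp2r3a (0.96) for Col4a1. For Fn1 they were Znhit2 (0.96) and Ppan (0.94). With 9 arrays and this many genes, values of this size describe the arrays and carry no test.

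The 7 lists of further matrix and stellate cell genes held 157 genes, of which 127 had a probe and 98 were tested. Of the 98, 8 were called after TBI against control, 5 higher and 3 lower (8.16%), 3 were called after HSC + TBI against control, 2 higher and 1 lower (3.06%), and 0 of 98 between HSC + TBI and TBI. The shares over all probes were 7.25%, 3.23% and 0.796%. Between HSC + TBI and TBI limma gave 10 of the 98 an unadjusted p under 0.05, against 16.3% of all probes, and the methods' t-test called 0, against 5.37%. The medians of the 98 were 0.02, -0.04 and -0.09. Without single rats the count for TBI ran from 3 (without control 3) to 12 (without TBI 3), with 4 each without control 1, control 2 or TBI 2. For HSC + TBI against control it ran from 0 (without control 2, control 3, HSC + TBI 1 or HSC + TBI 2) to 4, with 1 without HSC + TBI 3. Between HSC + TBI and TBI it was 5 without TBI 1, namely Pcolce, Tgfb3, Ccn2, Vim and Cd44, all lower after HSC + TBI. Without single rats the share of all probes called ran from 3.5% to 9.43%, 1.25% to 4.05% and 0.11% to 3.74% in the 3 comparisons. The 3.74% came without TBI 1, with 742 of the 948 called probes lower.

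Of the other proteases and inhibitors, 11 were tested, and 2 rose and 1 fell after TBI. Of all probes, 3.54% were called higher and 3.71% lower in this comparison. Mmp14, the membrane-type metalloproteinase that activates the Mmp2 proenzyme, had a log2 signal of 12.26, 12.21 and 12.04 in controls, 13.07, 12.96 and 12.96 after TBI, and 12.95, 12.96 and 12.72 after HSC + TBI. All irradiated rats were above all controls, as for Mmp2. It rose by 0.83 after TBI (SE 0.12, adjusted p = 0.00582) and by 0.71 after HSC + TBI (SE 0.12, adjusted p = 0.017). Mmp19, a secreted metalloproteinase, rose by 0.76 after TBI (adjusted p = 0.00719) and by 0.59 after HSC + TBI (adjusted p = 0.0307), from 7.65 to 7.92 in controls to 8.51 to 8.65 and 8.33 to 8.46. Mmp12, the macrophage elastase, fell by 1.61 after TBI (adjusted p = 0.048), from 4.03, 5.25 and 5.42 in controls to 3.19, 3.00 and 3.68. The TBI calls of Mmp14 and Mmp19 stood without any 1 rat (highest adjusted p 0.026 and 0.0266). Mmp19 has 2 probes, and their mean gave 0.57 after TBI and 0.52 after HSC + TBI, both under the fold threshold, as did normexp background correction (0.49 and 0.37). The HSC + TBI call of Mmp14 was lost without control 2, control 3, HSC + TBI 1 or HSC + TBI 2 (up to 0.0855), and that of Mmp19 without any 1 control or HSC + TBI rat (up to 0.129). The TBI call of Mmp12 was lost without control 2, control 3, TBI 1, TBI 2, HSC + TBI 1 or HSC + TBI 2 (up to 0.151).

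Of the TGF-beta pathway, 18 genes were tested, and 2 rose after TBI, against 3.54% of all probes called higher. Tgfbr3, the co-receptor betaglycan, had a log2 signal of 5.43, 5.19 and 5.02 in controls, 6.32, 6.12 and 5.92 after TBI, and 5.39, 5.76 and 5.50 after HSC + TBI. It rose by 0.91 after TBI (SE 0.16, adjusted p = 0.0146). After HSC + TBI it was 0.34 above control (adjusted p = 0.301) and below TBI without overlap of rats (log2 fold change -0.57, 95% interval -0.94 to -0.20, adjusted p = 0.153). Id1, a target of bone morphogenetic protein signalling, had 6.53, 7.04 and 7.07 in controls, 8.01, 8.85 and 7.77 after TBI, and 7.73, 8.17 and 8.27 after HSC + TBI. It rose by 1.33 after TBI (adjusted p = 0.0288) and was 1.18 above control after HSC + TBI (adjusted p = 0.0692). The call of Tgfbr3 was lost without control 3 (adjusted p = 0.0547), and that of Id1 without any 1 control or without TBI 2 (up to 0.0852).

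Of the other stellate cell and fibroblast genes, 19 were tested, and 1 rose and 2 fell after TBI. The shares of all probes were 3.54% called higher and 3.71% lower. Of the 19, 11 had a higher and 8 a lower mean after TBI. Of the genes known from quiescent stellate cells, Lrat and Lhx2 fell, while Reln (0.40), Pparg (0.34), Hgf (0.28), Gfap (0.19), Cygb (0.09) and Des (-0.03) were not called. Lrat, which esterifies retinol for storage, had a log2 signal of 11.29, 11.09 and 11.06 in controls, 10.40, 10.48 and 10.68 after TBI, and 10.64, 10.91 and 10.78 after HSC + TBI. It fell by 0.63 after TBI (adjusted p = 0.0237). Lhx2, a transcription factor that restrains stellate cell activation, had 7.91, 7.69 and 7.83 in controls, 7.23, 7.08 and 7.23 after TBI, and 7.50, 7.52 and 7.46 after HSC + TBI. It fell by 0.63 as well (adjusted p = 0.0123). For both genes the HSC + TBI rats lay below all controls without a call (-0.37, adjusted p = 0.167, and -0.32, adjusted p = 0.157), and for Lhx2 they also lay above all TBI rats (0.31, 95% interval 0.07 to 0.56, adjusted p = 0.209). Ednra, an endothelin receptor, had 7.56, 7.35 and 5.80 in controls and 9.45, 8.52 and 8.90 after TBI, and rose by 2.05 (SE 0.52, adjusted p = 0.0469). After HSC + TBI it had 8.74, 8.29 and 7.30 (1.21 against control, adjusted p = 0.246), with rats that overlapped both other groups. The mean of its 2 probes rose by 1.57 after TBI (adjusted p = 0.0492). The Lrat call was lost without any 1 control, TBI 1 or TBI 2 (adjusted p up to 0.0724), the Lhx2 call without control 1 or TBI 2 (its fold then under 1.5), and the Ednra call without any 1 rat except HSC + TBI 3 (up to 0.109).

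**Figure D4:**
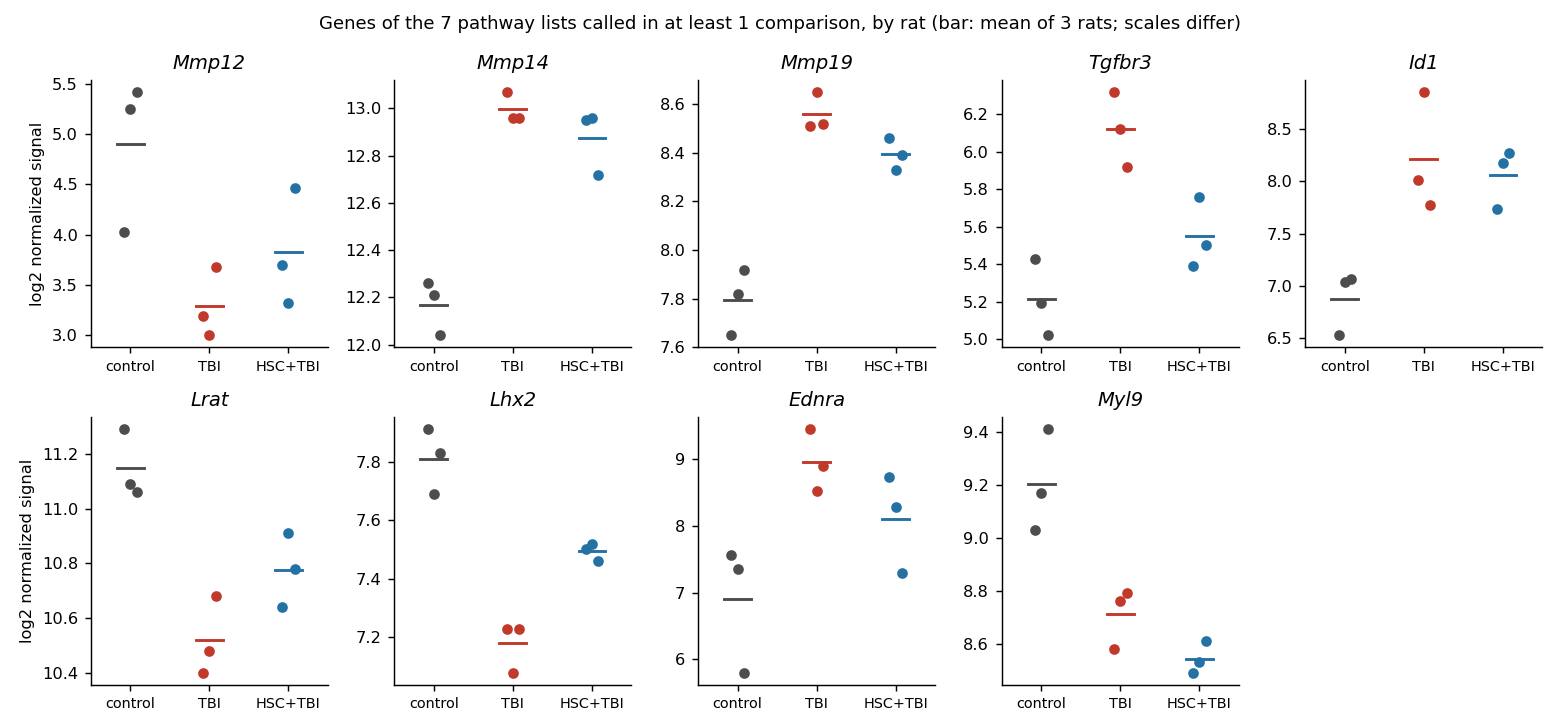
Log2 normalized signal in each rat of the 9 genes from the 7 further lists that were called in at least 1 comparison, with 3 rats a group, the bar at their mean and a scale of its own in each panel. Mmp14 and Mmp19 are higher in all irradiated rats than in the controls, and Lhx2 lies at 7.46 to 7.52 after HSC + TBI, between TBI (7.08 to 7.23) and control (7.69 to 7.91).

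Of 8 contractile genes tested, 0 were called after TBI and 1 fell after HSC + TBI, where 2.05% of all probes were called lower. Myl9, the regulatory light chain of smooth muscle myosin, had a log2 signal of 9.03, 9.17 and 9.41 in controls, 8.58, 8.76 and 8.79 after TBI, and 8.49, 8.53 and 8.61 after HSC + TBI. It fell by 0.66 after HSC + TBI (SE 0.13, adjusted p = 0.0335), and the TBI rats were below all controls too (-0.49, adjusted p = 0.0541). Its call did not survive leaving out control 2, control 3, TBI 2 or one of the HSC + TBI rats, with adjusted p values up to 0.132.

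No gene was called among 21 other matrix proteins, 11 collagen making and crosslinking enzymes and 10 matrix receptors, in any comparison. For TBI against control the matrix proteins with the largest log2 fold changes, among those above background on all 9 arrays, were Dcn, the proteoglycan decorin (0.72, adjusted p = 0.362), and Thbs2, a thrombospondin (-0.49, adjusted p = 0.253). Of those that were not, Spp1 (osteopontin) was at -0.53 (adjusted p = 0.573), and Col2a1, a cartilage collagen above background on no control array, was at least 1.05-fold higher (adjusted p = 0.0689). Limma gave 1, 5 and 1 of the 21 matrix proteins, 4, 3 and 1 of the 11 enzymes and 2, 2 and 1 of the 10 receptors an unadjusted p under 0.05 in the 3 comparisons, against 25.5%, 19.6% and 16.3% of all probes. The enzymes with the largest differences after TBI were Pcolce, which promotes procollagen cleavage (1.34 after TBI, adjusted p = 0.0623), and Loxl2, a lysyl oxidase (-0.48, adjusted p = 0.136). Of the receptors they were Itga5, a chain of the fibronectin receptor (0.45, adjusted p = 0.177), and Sdc4, a syndecan (0.42, adjusted p = 0.132). Between HSC + TBI and TBI the largest of all these was Cd44, the hyaluronan receptor, which is also found on leukocytes, at 5.82, 7.97 and 7.87 after TBI and 5.65, 5.72 and 5.57 after HSC + TBI (-1.57, 95% interval -2.76 to -0.39, adjusted p = 0.194). Without TBI 1 it was -2.27 with an adjusted p of 0.00678.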

How the data were processed

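Liver RNA of 9 rats was measured on one-colour Agilent arrays, 1 array per rat and 3 rats per group, grouped by the sample labels. Per the file headers, the authors read spot intensity with Feature Extraction 10.7.3.1, and they deposited quantile-normalized log2 values, which served here as an alternative. Here the processed signals, without control and outlier spots (84 to 115 of 43379 per array, none saturated), were floored at 1, logged to base 2, quantile-normalized and averaged per probe, in R 4.3.3 with limma 3.58.1. The result differed from the authors' values by a median of 0.03 (log2). The test covered 25369 of 41012 probes, those well above background in every rat of some group. Probes were named by RefSeq accession through assembly GRCr8, used for names and promoter windows only, which named 16968 probes.

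One limma fit held the 3 group means. A call needed a 1.5-fold difference and p under 0.05 after Benjamini-Hochberg adjustment. The number of arrays limits the precision, and an exact two-sided permutation test of 3 against 3 rats cannot go below 0.1. Summed marker signals are sums of normalized signals off the log scale. Alternatives tried were scaling to the 75th percentile, normexp (offset 50, on median intensities), the authors' values, no filter, probes above background on all arrays only, outlier spots kept, only the compared groups, the methods' t-test before and after adjustment, no fold threshold, a replicate block, a random block for the slide, the mean of a gene's probes, and each rat left out. Genes named were the 9 members, those most like each member and each list gene called in a comparison. For lists without a call the 2 with the largest differences were named. Of the Kupffer cell and macrophage markers, those with the highest and lowest probe signal were named, which sets no order between genes. Of the endothelial markers, Lyve1, Fcgr2b and Cdh5 were named for their differences from control. The 5 genes called without TBI 1 were named after their values were seen. The members and the lists were chosen with earlier results of these data known. The fit was tested on simulated data.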

Additional observations from a re-analysis of the deposited data

How the results depend on the processing

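Of 528 log2 fold changes of the 8 genes under the alternatives, 497 kept their direction and their side of the threshold, 8 passed it and 23 changed sign. Of 241 values of the called list genes, 169 kept their call, 72 lost it and none changed sign. Col1a1 for TBI against control was -0.00 with normexp, -0.18 with the mean of its probes and -0.03 to 0.08 without single rats, and for HSC + TBI against control -0.15 with the mean of its probes. Col4a1 for HSC + TBI against control was 0.06 with the 75th percentile shift, 0.00 with the authors' values and -0.04 to 0.03 without single rats, and against TBI -0.05 with the mean of its probes. Fn1 for HSC + TBI against TBI was 0.14 with the shift, 0.02 with normexp and -0.08 to 0.07 without single rats. Without single rats, HSC + TBI against TBI was -0.02 to 0.24 for Col1a2, -0.42 to 0.20 for Col3a1 and -0.15 to 0.13 for Mmp2, Timp1 for HSC + TBI against control was -0.29 to 0.05, and Tgfb1 for TBI against control was -0.15 to 0.37.

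With the slide as a random block, whose estimated correlation was negative (-0.33), 1 gene (Mmp2) was called for TBI against control, 2 (Mmp2 and Tgfb1) for HSC + TBI against control and 1 (Tgfb1) for HSC + TBI against TBI, and 17, 14 and 7 list genes. This fit called 17.8%, 10.1% and 8.89% of all probes. As no slide held more than one group, it cannot separate slide from group. The methods' t-test called 2 of the 8 genes and 8 list genes for HSC + TBI against control, beside 8.12% of all probes. Once adjusted it called 0 of each in all 3 comparisons, beside 0.572%, 0.394% and 0.00788% of all probes. Leaving out single rats gave 0 to 1 of the 8 genes for TBI against control (1 without TBI 3) and 0 to 1 for HSC + TBI against TBI (1 without TBI 1), and 3 to 12, 0 to 4 and 0 to 5 list genes. Of all probes, 3.5% to 9.43%, 1.25% to 4.05% and 0.11% to 3.74% were called in these fits. List genes called for TBI against control were 4 with normexp, 5 without the filter and 4 with only the compared groups, and for HSC + TBI against control 1 with normexp and 6 with only the compared groups. The matching shares of all probes were 2.83%, 4.36% and 4.63%, and then 2.03% and 4.2%. The causes were not tested. Same-numbered rats did not deviate together throughout (r = -0.14 to 0.19), and with the replicate block 0 of the 8 genes and 7, 2 and 0 list genes were called, beside 6.21%, 3.07% and 0.382% of all probes. Over all probes, the calls for HSC + TBI against TBI were 202 in the fit reported, 9 with normexp and 2256 with the slide block. Signal near background limits Mmp12, Spp1, Col2a1, Cd3g and Cd79b, which were not above background on every array, and all values rest on 3 rats a group.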
